A study of Bos taurus with 79 samples.

Results

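Myostatin (MSTN), the co-receptor CRIPTO, the activin subunit INHBA and follistatin (FST) were followed in bovine endometrium, the lining of the uterus, through the first part of the estrous cycle and early pregnancy. The members were all probe sets whose platform annotation gives 1 of these symbols alone, which were 5 of 24016 probe sets tested and 4 of 9155 named genes. MSTN had 2 probe sets and the other genes 1 each.

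Endometrial strips came from estrus-synchronized cross-bred beef heifers slaughtered on day 5, 7, 13 or 16. On each day, the 4 groups were cyclic heifers without (CN) and with (CH) raised progesterone and pregnant heifers without (PN) and with (PH) raised progesterone; the labels call the concentrations normal and high. High progesterone was produced by an intravaginal progesterone-releasing device (PRID), placed on day 3 and left in until slaughter; the CN and PN heifers had none. Each of the 16 groups had 5 arrays, except day 7 CH with 4 (replicates 2 to 5), giving 79 Affymetrix arrays of total RNA. The labels call the samples biological replicates. They do not say whether the arrays of a group shared a hybridization day. An array is named here by group and replicate number, as in day 7 CN 5.

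Myostatin is a secreted member of the transforming growth factor beta (TGF-beta) superfamily, best known as a brake on skeletal muscle growth, and it signals like the activins through type II activin receptors and SMAD2 and SMAD3. Activin A is a dimer of the INHBA product and helps prepare the endometrium for implantation. Follistatin binds activins and myostatin outside the cell and keeps them from their receptors, while CRIPTO is a membrane-anchored co-receptor that lets Nodal signal and can restrain activin signalling.

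Levels below are the deposited log2 expression values, so that a difference of 1 is a doubling. A probe set was called changed when limma's moderated test, fitted over all 16 groups and all 24016 probe sets, gave a Benjamini-Hochberg adjusted p under 0.05. Progesterone differences are high minus normal, averaged over cyclic and pregnant heifers unless a status is named. The tissue was analysed in bulk, so fewer cells of a type and less RNA per cell cannot be told apart. Array medians ran from 4.71 to 5.12, and no read depth exists for arrays; their number limits the precision. Levels under 3 lie at the bottom of the scale, where 32.2% of all probe sets had their mean.

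Several arrays stood apart. Day 7 CH 3 and day 13 PH 1 had an SD over probe sets under 2.7. The SD of an array's deviations from its group means exceeded 0.45 in these arrays and in day 5 CH 3, day 7 CN 5 and day 13 PH 4. Smooth muscle markers averaged above 10 in day 5 PN 4, day 7 PH 5 and day 13 PH 4. Day 7 CN 5 also stood apart from its group in MSTN, CRIPTO and INHBA, and the differences it moved most are given without it as well.

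Of the 4 genes, MSTN had the largest averaged progesterone difference on day 5 and the largest averaged changes from day 5 to 7 and from day 7 to 13. Its level was raised by high progesterone on day 5, fell from day 5 to day 7 as an average of the 4 groups, and rose again by day 13. Of the groups taken singly, only CH and PH were called for the fall. Day 7 held the 4 lowest group means of the brighter probe set. In the brighter MSTN probe set (gene ID 281187), the day 5 CN arrays read 2.82, 5.39, 6.08, 4.34 and 7.33. The day 5 CH arrays read 8.11, 7.62, 5.93, 6.50 and 8.97. In cyclic heifers the groups therefore overlapped, with 3 of 5 high-progesterone arrays above all normal ones. The day 5 PN arrays read 5.29, 3.72, 3.29, 3.94 and 4.82. The day 5 PH arrays read 6.42, 6.56, 7.74, 8.49 and 8.21. The pregnant groups did not overlap, every PH array lying above every PN array; 1.07% of all probe sets were separated in this direction between the same arrays.

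Group means for MSTN on day 5 were 5.19 ± 1.71 in CN and 7.42 ± 1.22 in CH, and 4.21 ± 0.82 in PN and 7.48 ± 0.95 in PH (SD, n = 5 each). High progesterone raised MSTN by 2.75 ± 0.52 on the log2 scale (SE), 6.75-fold, with an adjusted p of 0.0015 in limma's test. In that comparison 0.908% of all probe sets were called, 0.433% as higher. Leaving out each of the 20 day 5 arrays in turn gave 2.46 to 3.02, always called. The second MSTN probe set rose by 2.43 ± 0.49 (adjusted p = 0.0029, limma), and the 2 probe sets had the 6th and 7th largest positive differences of the 24016. By status, the MSTN rise was 3.28 ± 0.74 in pregnant heifers (adjusted p = 0.035, limma), where 0.15% of probe sets were called. In cyclic heifers the difference was 2.23 ± 0.74 (adjusted p = 0.30, limma) and missed the threshold, with 0.15% of probe sets called there too. The difference between these effects was 1.04 ± 1.05 (95% interval -1.05 to 3.14, limma), so a dependence on status was not shown, where 0% of probe sets were called.

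**Figure D1:**
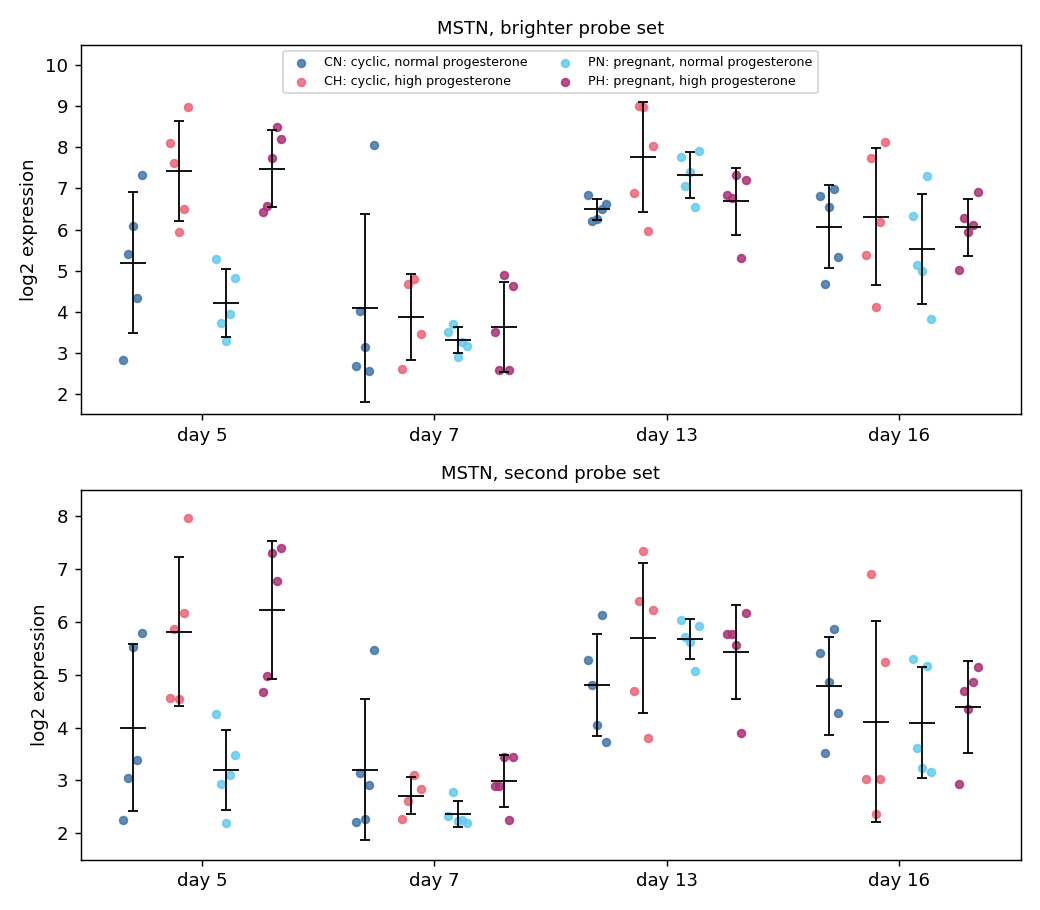
Log2 expression of both MSTN probe sets (y axis) by day and group (x axis, CN, CH, PN and PH from left to right within each day). Each point is an array, the long bar is the group mean and the whiskers are ±1 SD; the high-progesterone groups stand above the normal ones on day 5, and day 7 is low apart from the CN array at 8.05.

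Markers of muscle and immune cells were read beside the day 5 result, since MSTN is a muscle gene. None of the 8 smooth muscle markers was called for progesterone on day 5, and their summed level, given as a mean over the list, was 8.23 in CN (7.61 to 8.96 across arrays) and 7.99 in CH (7.69 to 8.35), and 8.92 in PN (7.48 to 11.44) and 8.26 in PH (8.02 to 8.47). None of the 10 skeletal muscle markers was called either. Of these, CKM had a mean level of 8.47 and MYH1 of 3.51, with no array under 3. The others were under 3 in 71 to 79 of the 79 arrays, MYL1 in all 79. The 8 macrophage markers, with none called, averaged 7.09 in CN (6.53 to 7.81) and 7.83 in CH (6.49 to 10.21), and 6.75 in PN (6.17 to 7.52) and 7.20 in PH (6.92 to 7.41). The macrophage mean was thus higher in CH than in CN and in PH than in PN, with overlapping arrays. The 4 B and plasma cell markers, none called, averaged 3.35 in CN and 4.18 in CH (up to 6.65), and 3.21 in PN and 3.46 in PH. The 8 T and NK cell markers, none called, averaged 3.87 in CN and 4.35 in CH (up to 6.91), and 3.74 in PN and 3.40 in PH. The lymphocyte means were thus higher in CH than in CN, while in pregnant heifers the T and NK mean was lower with high progesterone. In CH the highest value of the macrophage, B and plasma, and T and NK lists came from day 5 CH 3. That array's MSTN, 5.93, was the lowest of its group. The other CH arrays read 6.49 to 7.95, 3.43 to 3.62 and 3.47 to 3.96 for these lists. The CN arrays read 6.53 to 7.81, 3.22 to 3.58 and 3.68 to 4.09. The part of these cells in the MSTN result was not tested. Of the 6 genes on the trophoblast list, SSLP1 was called as higher and the other 5 were not. SSLP1 had its highest group mean, 9.56, in day 7 CH, a cyclic group. The other 5 had mean levels of 1.72 to 2.89.

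On day 7 the same MSTN probe set was low whatever the progesterone status. Its CN arrays read 2.69, 4.03, 3.13, 2.57 and 8.05, and the CH arrays 2.60, 4.68, 4.79 and 3.46. The PN arrays read 3.51, 3.71, 2.91, 3.27 and 3.15, and the PH arrays 3.51, 2.57, 4.88, 2.58 and 4.62. Day 7 CN 5, at 8.05, was the exception, and every other array of that day lay under 5. Readings under 3, at the bottom of the scale, came from 2 CN, 1 CH, 1 PN and 2 PH arrays. In the second probe set they came from 3 CN, 3 CH, 5 PN and 3 PH arrays. MSTN differences involving day 7 thus lay partly at the bottom of the scale. The progesterone difference was 0.05 ± 0.54 (95% interval -1.03 to 1.14), on a day when 4.7% of all probe sets were called for progesterone; without day 7 CN 5 it was 0.55 and still not called. The progesterone effect on MSTN moved by -2.70 ± 0.75 from day 5 to day 7 (adjusted p = 0.062, limma), just short of the threshold, where 0.82% of probe sets were called. This change of effect was past the threshold with array weights, at -2.79 (adjusted p = 0.02, limma), and was -2.20 and not called without day 7 CN 5.

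Between days 5 and 7, averaged over the 4 groups, MSTN fell by 2.35 ± 0.38 (adjusted p = 2.2e-06, limma), where 20.7% of probe sets were called and 11.8% as lower. It was -2.60 without day 7 CN 5. The fall shares its day 5 arrays with the day 5 progesterone difference. The second probe set gave the 20th and the brighter one the 7th most negative difference of all. The difference was -3.55 in CH (adjusted p = 0.0012, limma) and -3.85 in PH (adjusted p = 0.00078, limma), where 15.2% and 4.87% of probe sets were called. The day 5 and day 7 arrays did not overlap in CH or in PH, as for 4.97% and 5.15% of probe sets in this direction. With normal progesterone the differences were smaller and not called, at -1.10 ± 0.74 in CN and -0.90 in PN, where 0.0291% and 4.81% of probe sets were. Without day 7 CN 5, the CN difference was -2.09 ± 0.70 (adjusted p = 0.096, limma). Macrophage markers moved in the same direction as MSTN over these days, 7 of 8 being called as lower, as did 5 of 6 stromal and 2 of 8 smooth muscle markers (ACTA2 and MYLK). The smooth muscle mean went from 8.23 to 7.67 in CN and from 8.92 to 7.53 in PN. In CH it went from 7.99 (7.69 to 8.35) to 7.30 (7.13 to 7.52), without overlap. In PH it was 8.26 (8.02 to 8.47) and 8.30, the latter raised by day 7 PH 5, which read above 10. The other day 7 PH arrays read 7.43 to 7.88, below all day 5 PH arrays. The part of these cells in the fall was not tested.

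From day 7 to day 13, MSTN rose by 3.34 ± 0.38, 10.1-fold (adjusted p = 2.2e-11, limma), and by 3.59 without day 7 CN 5. This interval had the broadest change, with 36.9% of probe sets called and 18.8% as higher, and it shares its day 7 arrays with the fall before it. MSTN was called in each of the 4 groups, by 2.40 ± 0.74 in CN and 3.88 in CH, and 4.02 in PN and 3.05 in PH, where 16.2%, 26.6%, 18.4% and 13.7% of probe sets were called. Day 13 arrays lay above all day 7 arrays in CH, PN and PH; the shares of probe sets separated in this way were 9.28%, 7.86% and 3.59%. In CN the groups overlapped because of day 7 CN 5, and the rise was 3.39 without that array. The CN rise was lost without day 7 CN 1, CN 3 or CN 4, at 2.04, 2.16 and 2.02, with adjusted p = 0.066, 0.052 and 0.074 (limma). Endothelial markers were also higher on day 13, 6 of 8 being called. The epithelial mean was higher on day 13 in each group, from 7.94 to 8.35 in CN, 8.07 to 8.34 in CH, 7.92 to 8.29 in PH and 7.78 (7.53 to 7.99) to 8.30 (8.07 to 8.43) in PN, without overlap in PN; 3 of its 9 markers were called as higher and 2 as lower. The part of these cells in the rise was not tested.

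The day 13 CN arrays, at 6.84, 6.21, 6.27, 6.51 and 6.62, had the smallest SD of the 16 groups for this probe set, 0.26. The day 13 CH arrays read 6.88, 9.00, 8.98, 5.95 and 8.02, and included the highest value of the series. PN arrays read 7.76, 7.05, 7.41, 6.54 and 7.90, and PH arrays 6.84, 6.76, 7.32, 5.30 and 7.19. These groups overlapped. The progesterone difference on day 13 was 0.31 ± 0.52 and was not called, in a comparison with 0.441% of probe sets called. By status the directions were opposite, at 1.28 in cyclic and -0.65 in pregnant heifers. Neither was called, where 0.337% and 0.0625% of probe sets were. Leaving out each array in turn, the difference between these effects ran from -2.38 to -1.58 and was never called, so a dependence on status was not shown.

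By day 16, MSTN group means were 6.07 ± 1.01 in CN and 6.31 ± 1.66 in CH, and 5.52 ± 1.33 in PN and 6.05 ± 0.69 in PH (SD, n = 5). Arrays ran from 3.83 to 8.14, and the groups overlapped. The day 13 to 16 difference was -1.08 ± 0.37 (adjusted p = 0.056, limma), just short of the threshold, while the second probe set gave -1.05 (adjusted p = 0.041, limma), just past it; 8.65% of probe sets were called. Neither call was stable: leaving out each array in turn, the brighter probe set passed in 10 of 40 omissions and the second lost its call in 22 of 40. The progesterone difference on day 16 was 0.39 ± 0.52 and was not called, where 0.0958% of probe sets were. Pregnancy differences of MSTN ran from -0.51 on day 7 to -0.12 on day 13 and none was called; the day 7 value was -0.02 without day 7 CN 5. The shares of probe sets called for pregnancy were 0.0167% on day 5, 0% on days 7 and 13 and 3.16% on day 16.

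Ordered by group mean, MSTN ran from 3.31 in day 7 PN to 7.76 in day 13 CH. No step between neighbours in that order exceeded the pooled SD of the 2 groups, so that only groups far apart in the order can be told apart by their spread. In this brighter probe set the 4 day 7 groups held the 4 lowest means, and day 5 PN came next. In the second probe set, day 5 PN at 3.19 lay just below day 7 CN at 3.21.

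The study's design also allows the high-progesterone endometrium of a day to be set against the normal endometrium of the next sampling day, which asks whether supplementation brings the later state forward. For MSTN the progesterone and day differences ran in opposite directions, since it was raised by progesterone on day 5 and fell from day 5 to day 7. High progesterone on day 5 stood above normal progesterone on day 7 by 3.75 ± 0.52, 13.5-fold (adjusted p = 2.3e-06, limma), the highest difference of all 24016 probe sets. In this comparison 4.47% were called, 2.4% as higher. The 10 high day 5 arrays ran from 5.93 to 8.97 and the 10 normal day 7 arrays from 2.57 to 8.05, with day 7 CN 5 alone above 5; without that array the difference was 4.25. The second probe set ranked 4th here. Among markers, 1 of 8 macrophage genes (CD68) and 1 of 9 epithelial genes (KRT19) were called as higher, and their part was not tested. High progesterone on day 7 was below normal progesterone on day 13 by a difference of -3.15 ± 0.54 (adjusted p = 5.5e-06, limma), with 21.0% of probe sets called. All 9 high day 7 arrays (2.57 to 4.88) lay below all 10 normal day 13 arrays (6.21 to 7.90), a separation found in this direction for 2.15% of probe sets. High day 13 against normal day 16 differed by 1.43 ± 0.52 (adjusted p = 0.30, limma), where 0.121% of probe sets were called; it passed with array weights, at 1.65 (adjusted p = 0.025, limma). These comparisons share arrays with the progesterone and day comparisons above.

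**Figure D2:**
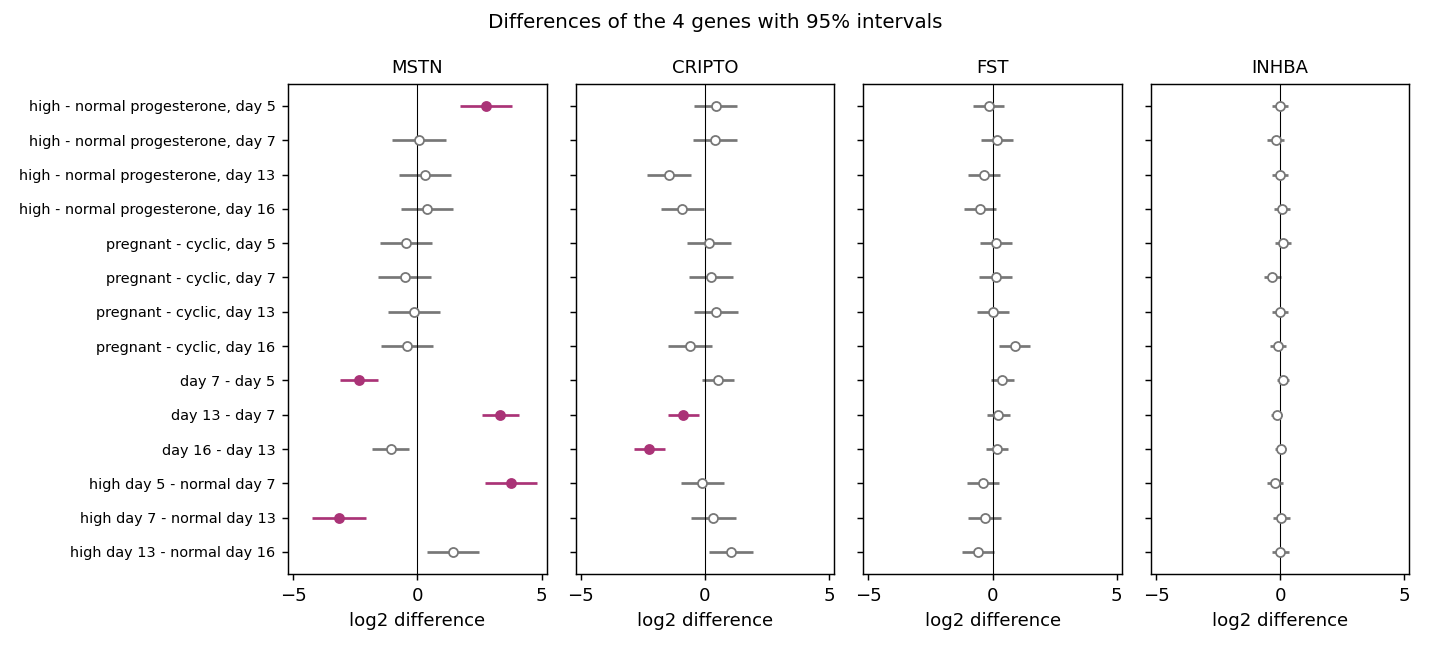
Log2 differences (x axis) of the 4 genes for progesterone, pregnancy, successive days and high progesterone against the next day (y axis), with 95% intervals. Filled points passed an adjusted p of 0.05 in limma; MSTN has 5 and CRIPTO 2, and FST and INHBA have none.

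INHBA, the subunit of activin A, was near the bottom of the scale in nearly every array. Its probe set (gene ID 281867) read under 3 in 77 of 79 arrays. The exceptions were day 7 CN 5 at 5.17 and day 5 PN 4 at 3.03. Group means ran from 2.27 in day 16 PN to 2.85 in day 7 CN, and without day 7 CN 5 the day 5 to 7 difference in CN was -0.02. INHBA was called in no comparison, its lowest adjusted p in limma's test being 0.19, and at this level the arrays could not show whether the transcript changed. INHA, the inhibin alpha subunit that pairs with INHBA's product, was under 3 in all 79 arrays. Of the 5 listed ligands measured besides the members, INHA differed by 0.08 from day 5 to day 7, called at the bottom of the scale, and TGFB2, a ligand of the TGF-beta receptors, fell by 1.10 ± 0.24 from day 7 to day 13. The other 3 were called in no comparison between days over all groups.

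CRIPTO kept group means near 13 through day 7 and then declined, earlier by the means of the high-progesterone groups. Its probe set (gene ID 784029) gave group means from 12.62 to 13.25 on day 5. On day 7 the means were 12.88 ± 1.60 in CN and 13.64 ± 0.27 in CH, and 13.48 ± 0.19 in PN and 13.51 ± 0.11 in PH (SD, n = 5, and n = 4 for CH). The wide spread of CN came from day 7 CN 5, at 10.04, the other 4 CN arrays reading 13.37 to 13.76. The day 5 to 7 difference was 0.52 ± 0.31, or 0.70 without day 7 CN 5, and was not called either way. On day 5 the PH arrays (13.03 to 13.39) lay above the PN arrays (11.84 to 12.95) without overlap, as for 1.07% of probe sets, but the difference of 0.62 ± 0.62 was not called.

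On day 13 the CRIPTO values with high progesterone spread downward. The CN arrays read 13.46, 13.00, 13.45, 12.88 and 13.95, and the PN arrays 13.10, 13.35, 13.20, 12.98 and 12.97. The CH arrays read 12.90, 11.99, 7.68, 11.34 and 12.21, and the PH arrays 11.69, 11.76, 12.85, 13.16 and 12.22. Of the 10 high-progesterone arrays, 8 lay below all 10 normal ones, and day 13 CH 3 lay far below the rest of its group. The high minus normal difference was -1.45 ± 0.44 (95% interval -2.32 to -0.58) and missed the threshold (adjusted p = 0.14, limma), at -2.12 ± 0.62 in cyclic and -0.78 ± 0.62 in pregnant heifers, neither called, where 0.337% and 0.0625% of probe sets were. Without day 13 CH 3 it was -1.01 ± 0.39 (adjusted p = 0.56, limma), and without day 13 CH 1 it was -1.66 and past the threshold (adjusted p = 0.047, limma). No marker of the cell-type lists was called for progesterone on day 13.

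**Figure D3:**
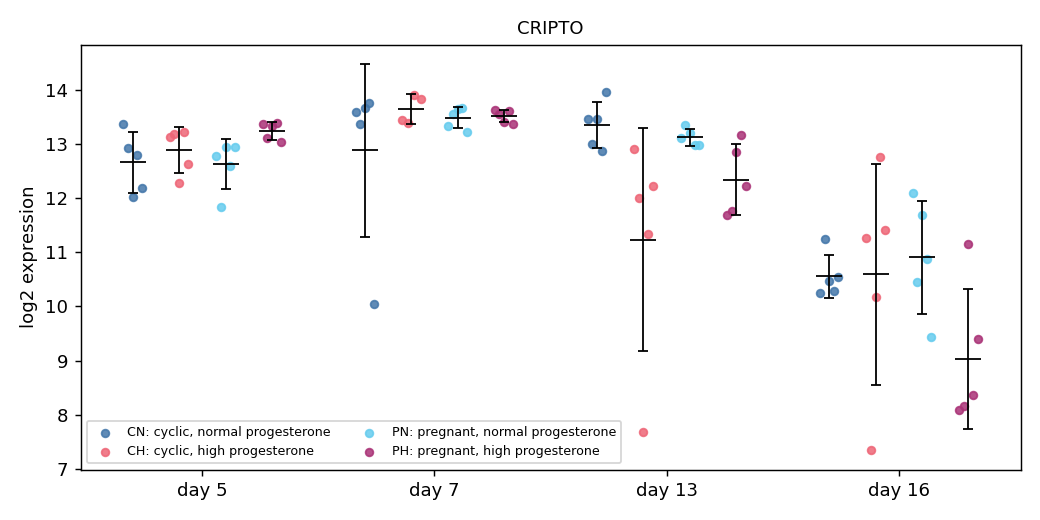
Log2 expression of CRIPTO (y axis) by day and group (x axis, CN, CH, PN and PH from left to right within each day). Points are arrays, the long bar is the group mean and the whiskers are ±1 SD; levels stay near 13 through day 7 apart from the CN array at 10.04, spread downward in CH and PH on day 13, and are lower on day 16.

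From day 7 to day 13, CRIPTO changed by -0.87 ± 0.31 over all groups (adjusted p = 0.022, limma), a comparison with 18.1% of probe sets called as lower. The groups did not share this change evenly. It was -2.42 ± 0.65 in CH (adjusted p = 0.0044, limma), -1.17 ± 0.62 in PH, -0.36 ± 0.62 in PN and 0.47 ± 0.62 in CN, and only the CH value was called. Day 13 arrays lay below all day 7 arrays in CH and in PH, as for 6.09% and 5.37% of probe sets. The CN value was -0.24 without day 7 CN 5, so its sign rested on that array. The pooled change was -0.65 (adjusted p = 0.059, limma) without day 13 CH 3, and -1.05 and called without day 7 CN 5. Over these days 6 of 8 endothelial markers were called as higher, the endothelial mean going from 5.49 to 6.08 in CH, and the epithelial mean was higher in each group, as given for MSTN; their part in the CRIPTO change was not tested. How the progesterone effect moved from day 7 to day 13 was tested directly, at -1.85 ± 0.63 (adjusted p = 0.13, limma), and was not called; 1.44% of probe sets were.

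The later decline was steeper. From day 13 to day 16 CRIPTO fell by 2.24 ± 0.31 (adjusted p = 3.5e-07, limma), the 7th most negative difference of all probe sets, where 8.65% were called and 3.62% as lower. The day 16 CN arrays read 10.25, 11.24, 10.46, 10.28 and 10.54, all below the day 13 CN arrays. The fall was called in CN at -2.80 ± 0.62, in PN at -2.21 ± 0.62 and in PH at -3.31 ± 0.62, where 0.666%, 1.79% and 3.64% of probe sets were called. The arrays of the 2 days did not overlap in any of these 3 groups. Shares of probe sets separated downward in the same groups were 1.28%, 2.05% and 0.6%. In CH the difference was -0.64 ± 0.62 and was not called (adjusted p = 0.71, limma), where 0.333% of probe sets were. The CH mean was already lower on day 13, but it included day 13 CH 3 at 7.68. The CH medians were 11.99 on day 13 and 11.26 on day 16. The CH arrays of day 16 were the most scattered, at 11.26, 7.34, 10.18, 12.76 and 11.40. Among markers, 2 of 6 stromal genes (COL3A1 and LUM) were lower and 1 of 9 epithelial genes (CDH1) was higher over the same days; their part was not tested.

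On day 16 CRIPTO was lowest in pregnant heifers with high progesterone, whose arrays read 8.08, 8.15, 11.15, 8.37 and 9.39. The PN arrays read 12.09, 10.45, 11.68, 10.88 and 9.44. The PH and PN arrays overlapped through PH 3. The high minus normal difference in pregnant heifers was -1.88 ± 0.62 (adjusted p = 0.33, limma), in cyclic heifers 0.04 ± 0.62, and their difference -1.92 ± 0.87 (adjusted p = 0.31, limma). None of these was called, where 0.104%, 2.92% and 0.87% of probe sets were. The last passed with array weights (-2.22, adjusted p = 0.045, limma) and without day 16 CH 2 (-2.73, adjusted p = 0.046, limma). The pregnancy difference on day 16 was -0.60 ± 0.44 and those of the other days 0.16 to 0.44, none called; that of day 7 was 0.23, and -0.12 without day 7 CN 5. In the order of group means, which ran from 9.03 in day 16 PH to 13.64 in day 7 CH, 1 of 15 steps between neighbours exceeded the pooled SD, the step of 1.52 above day 16 PH being the largest.

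FST, the extracellular inhibitor, varied least of the 3 genes with measurable levels. Its probe set (gene ID 327681) had group means from 8.22 ± 1.25 in day 5 CH to 9.84 ± 0.70 in day 16 PH (SD, n = 5 each), a span of 1.62. The day 5 CH mean was pulled down by day 5 CH 3 at 6.22, the group median being 8.95. No step between neighbouring groups exceeded their pooled SD. Differences between successive days were 0.40 ± 0.23, 0.23 ± 0.23 and 0.17 ± 0.23, none called. Progesterone differences ran from -0.52 on day 16 to 0.18 on day 7, none called. Among the omissions of single arrays, that of day 5 changed sign only without day 5 CH 3, to 0.08.

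Day 16 was where FST groups stood furthest apart. The CN arrays read 9.45, 9.54, 9.98, 9.10 and 9.29, and the PN arrays 9.95, 9.89, 9.56, 9.61 and 9.36. The CH arrays read 9.89, 6.42, 8.77, 8.14 and 8.13, and the PH arrays 9.17, 9.32, 10.02, 10.94 and 9.72. CH was the low group, but CH 1 lay within the range of the others, so that CH and PH overlapped. Pregnancy raised FST by 1.56 ± 0.45 in the high-progesterone heifers, 2.96-fold (adjusted p = 0.02, limma), where 7.78% of probe sets were called and 4.33% as higher. With normal progesterone the difference was 0.20 ± 0.45 (95% interval -0.70 to 1.11), where 0.658% of probe sets were called. The average over both was 0.88 ± 0.32 (adjusted p = 0.13, limma), not called, while 3.16% of probe sets were. The test of the difference between these effects gave 1.36 ± 0.64 (adjusted p = 0.33, limma), so a dependence on progesterone was not shown. Macrophage markers averaged 6.39 in day 16 CH (5.82 to 7.45) and 7.06 in PH (6.04 to 7.55), and smooth muscle markers 7.79 (7.28 to 8.15) and 7.02 (6.28 to 7.83). Epithelial markers averaged 8.24 (8.05 to 8.37) in CH and 8.71 (8.48 to 8.78) in PH, without overlap and in the same direction as FST. The part of these cells was not tested.

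**Figure D4:**
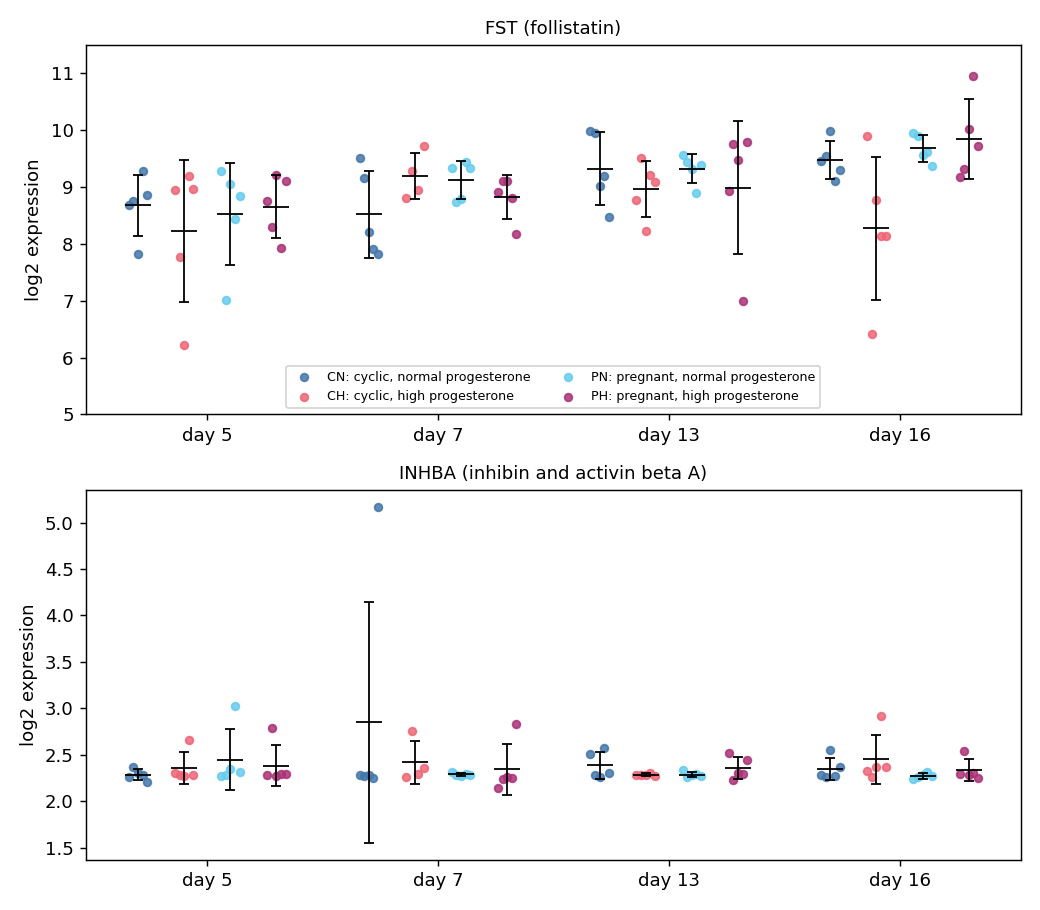
Log2 expression of FST (upper panel) and INHBA (lower panel) by day and group (x axis, CN, CH, PN and PH from left to right within each day), with arrays as points, the mean as a long bar and ±1 SD as whiskers; the y axes differ. By group mean FST is lowest in CH on days 5 and 16, on day 5 through CH 3 at 6.22, the CH median being 8.95. INHBA lies under 3 apart from the arrays at 5.17 and 3.03.

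The rest of the pathway was read from lists with 46 genes measured. The lists held ligands, receptors, extracellular inhibitors and carriers, processing proteases, SMADs with their regulators, response genes and the bone morphogenetic protein branch. Many of the listed genes, NODAL, INHBB, ACVR1B and SMAD7 among them, were not analysed here. On day 5, where MSTN was raised by progesterone, 1 of the 46 was called as higher and 2 as lower. Of all probe sets, 0.908% were called in that comparison, 0.433% as higher. ID2, a transcriptional inhibitor, rose by 0.53 ± 0.14. LTBP1, which tethers latent TGF-beta to the matrix, changed by -1.68 ± 0.41, and PMEPA1, a TGF-beta-induced inhibitor of SMAD signalling, by -0.83 ± 0.22. The list median was 0.00, against 0.00 over all probe sets. PMEPA1 read under 3 in 53 of 79 arrays, so part of its change lay at the bottom of the scale.

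Among receptors, ACVR2B, a type II receptor that binds myostatin and activin, moved opposite to MSTN between days 5 and 7. ACVR2B rose by 0.80 ± 0.13 over those days (adjusted p = 5.7e-06, limma) and was higher with high progesterone on day 7 by 0.71 ± 0.19 (adjusted p = 0.018, limma). ACVR2A, the other type II activin receptor, differed by 0.21 from day 5 to day 7 and was not called. ACVR1, a type I receptor, fell by 0.18 from day 5 to 7 and by 0.30 from day 7 to 13. From day 7 to 13, TGFBR2, the type II receptor of TGF-beta, rose by 0.56 ± 0.08 and the co-receptor ENG by 0.43 ± 0.12, while BMPR2 fell by 0.50 ± 0.16. Of the 10 receptors, 1 rose and 1 fell from day 5 to 7, and 2 rose and 2 fell from day 7 to 13; over all probe sets the shares were 8.84% and 11.8%, then 18.8% and 18.1%.

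Over all lists, 4 of 46 genes rose and 9 fell from day 5 to 7, against 8.84% and 11.8% of all probe sets. Response genes were among those that fell: TGFBI, a matrix protein induced by TGF-beta, by 1.12 ± 0.19, ID1 by 0.70 ± 0.13 and ID3 by 0.37 ± 0.13. BMP7, a bone morphogenetic protein, fell by 0.62 ± 0.18, though it read under 3 in 61 of 79 arrays. SMAD2, which carries the myostatin and activin signal, fell by 0.28 ± 0.06 (adjusted p = 0.00025, limma), USP15, a deubiquitinase, fell by 0.19 ± 0.06, and the repressor TGIF1 rose by 0.23 ± 0.08. From day 7 to 13, when MSTN rose, 8 of the 46 rose and 11 fell, shares close to the 18.8% and 18.1% of all probe sets. CCN2, a connective tissue growth factor, rose by 1.74 ± 0.15, KLF10, an early TGF-beta response gene, by 1.23 ± 0.10 and CCN1 by 1.05 ± 0.32. Of the 6 SMADs and regulators, SMAD3 rose by 0.29 ± 0.11 and the phosphatase PPM1A by 0.24 ± 0.06, while SMAD4, the shared partner SMAD, fell by 0.22 ± 0.05 and SMAD2 by 0.16 ± 0.06. In the bone morphogenetic protein branch, BMP2 rose by 0.53 ± 0.14 and GDF7 fell by 0.34 ± 0.11.

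Of the 8 measured extracellular inhibitors and carriers, none rose and 5 fell from day 7 to 13, against 18.8% and 18.1% of all probe sets. The list median was -0.49, against -0.01 over all probe sets. LTBP2, a latent TGF-beta binding protein family member, fell by 1.55 ± 0.33, THBS1, a matrix protein that can activate latent TGF-beta, by 1.34 ± 0.11 and TMEFF1, a membrane protein with follistatin-like domains, by 1.17 ± 0.12. FSTL3, a follistatin relative that also binds activin and myostatin, fell by 0.50 ± 0.14 and FBN1, a microfibril protein, by 0.48 ± 0.15. FSTL3 was under 3 in 56 of 79 arrays. FST itself showed no such fall, its day 7 to 13 difference being 0.23 ± 0.23 (95% interval -0.23 to 0.69). The listed members thus include genes that release as well as hold ligands. From day 13 to 16, when CRIPTO fell, 4 of the 46 rose and 1 fell, against 5.03% and 3.62% of all probe sets: ID1 rose by 0.52 ± 0.13, KLF10 by 0.32 ± 0.10, TGIF1 by 0.23 ± 0.07 and SMAD4 by 0.16 ± 0.04, and THBS1 fell by 0.83 ± 0.10. For pregnancy on day 16, none of the 46 was called, where 3.16% of all probe sets were.

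**Figure D5:**
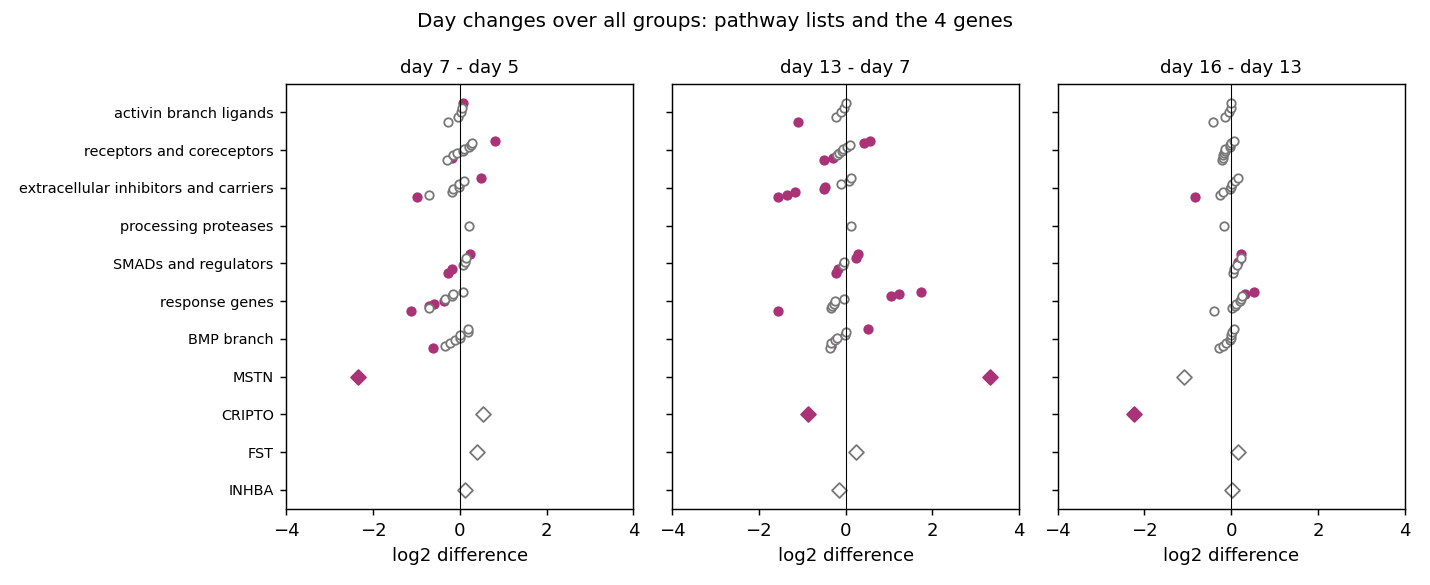
Log2 differences between successive days over all groups (x axis) for the genes of 7 pathway lists (circles) and for the 4 genes (diamonds). Filled symbols passed an adjusted p of 0.05 in limma; MSTN lies outside the range of the listed genes from day 5 to 7 and from day 7 to 13, and CRIPTO from day 13 to 16.

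Gene patterns closest to each member were ranked by Pearson's r over the 16 group means, among named genes whose means spanned at least 1. These r values describe points that share arrays and days. For MSTN, the second probe set followed the brighter one with r = 0.97. The closest other genes were PLS3, an actin-bundling protein (r = 0.89), CD48, a leukocyte surface protein (r = 0.83), OOEP (r = 0.82), NSL1 (r = 0.81) and A2M, a protease inhibitor (r = 0.80). CD48 spanned 3.44 in its group means. The most opposite was ZDHHC14 (r = -0.81).

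The genes closest to CRIPTO were PHGDH, the first enzyme of serine synthesis (r = 0.97), PEPD, a dipeptidase (r = 0.97), NXPE3 (r = 0.96), SRPX (r = 0.95) and TST, a mitochondrial sulfurtransferase (r = 0.95). PHGDH ran from 7.74 to 12.1 in its group means, a span like that of CRIPTO. TNFRSF18, a lymphocyte receptor (r = -0.95), CYB5R1 (r = -0.94) and the crystallin CRYGS (r = -0.94) ran most opposite, CRYGS with a span of 6.93.

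For FST the closest were ABHD1 (r = 0.86), OSGIN1 (r = 0.83), SDF4 (r = 0.82), the chemokine receptor CXCR4 (r = 0.82) and ENOSF1 (r = 0.80), over a smaller span of FST itself. INHBA's closest gene, TNFRSF1B, had an r of 0.60, and INHBA's own means differed through few arrays.

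Within groups, the deviations of MSTN and CRIPTO from their group means were compared across the 79 arrays. Pearson's r was -0.32 (permutation p = 0.055, two-sided, within groups; adjusted p = 0.14 over 10 pairs) and Spearman's rho -0.18 (permutation p = 0.16; adjusted p = 0.32). Leaving out the 2 arrays farthest from the median of MSTN gave r = -0.17. For the second MSTN probe set r was -0.43 (permutation p = 0.0048, adjusted p = 0.024) and rho -0.28 (permutation p = 0.033, adjusted p = 0.17), with r = -0.26 without the 2 farthest arrays. Of these, only Pearson's r of the second probe set passed 0.05 after adjustment. For CRIPTO and FST r was 0.31 (permutation p = 0.029, adjusted p = 0.098) and rho 0.19 (permutation p = 0.14, adjusted p = 0.32), and r was 0.16 without the 2 farthest arrays.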

How the data were processed

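The deposited table holds log2 expression values for 79 arrays; the submitters' processing notes name RMA, GCRMA and limma, without saying which of the first pair made the values. No other normalization was applied. Of 24128 probe sets, Affymetrix controls were left out, leaving 24016. The platform table pairs 13292 of them with a single gene symbol and 86 with several; 10638 are unnamed here. Where a gene had several probe sets, the brightest represents it.

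Group means were fitted with limma 3.58.1 (R 4.3.3, statmod 1.5.0; 63 residual degrees of freedom). From the fit, 25 main comparisons were drawn, and further ones within a single status, progesterone level or group. Benjamini-Hochberg adjustment ran over all probe sets within each comparison, not across comparisons. The fit was tested on simulated data. Deviation correlations used 100000 permutations within groups.

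Named were the 4 members, up to 4 called genes per pathway list with the largest differences where a member was called (FBN1 and the day 16 list members were added after their values were seen), and for each member the 5 genes most alike and up to 3 most opposite. Members and lists were chosen with earlier results of these data known. Same-numbered arrays of a day did not deviate together (mean r 0.029, 0.047, 0.023 and -0.0092 on days 5, 7, 13 and 16), so numbers were not taken to pair samples. Alternatives were other normalizations, filters, moderation and weights, single arms, fewer days, a replicate block and omission of arrays. No sequence or coordinate is used here.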

Additional observations from a re-analysis of the deposited data

Results flagged for a closer look

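Within-group spread was examined in 80 sets, 16 groups for each of the 5 probe sets. In these, 14 values lay far from the other arrays of their group, with a gap above Dixon's 95% critical value. Some of the values came from the same array. Chance would give about 4 if the sets were normal and independent, but the sets of a group share arrays. Day 7 CN 5 was far from its group in 4 of the 5 probe sets, at 8.05 and 5.47 for the brighter and the second MSTN probe set, 10.04 for CRIPTO and 5.17 for INHBA. Day 13 PH 4 was low in both MSTN probe sets, at 5.30 and 3.89; its smooth muscle markers averaged 12.45, the highest of any array. The second MSTN probe set was also high in day 7 PN 2, at 2.78, and CRIPTO was high in day 16 CN 2, at 11.24. The other INHBA values far from their groups lay near the bottom of the scale: 2.66 in day 5 CH 4, 3.03 in day 5 PN 4, 2.79 in day 5 PH 2, 2.83 in day 7 PH 5, 2.92 in day 16 CH 4 and 2.54 in day 16 PH 2.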

How the results depend on the processing

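For the 12 results followed most closely, 444 recomputed values kept the direction and the side of the threshold, 13 newly passed it, 12 no longer passed it and 1 changed sign. The MSTN rise from day 7 to 13 and the MSTN differences of high day 5 against normal day 7 and high day 7 against normal day 13 kept their calls under every alternative run. Single arms changed calls: the MSTN day 5 progesterone difference was 2.23 in cyclic heifers, the MSTN fall from day 5 to 7 was -1.10 in CN and -0.90 in PN, the CRIPTO change from day 7 to 13 was 0.47 in CN, -1.17 in PH and -0.36 in PN, the CRIPTO change from day 13 to 16 was -0.64 in CH, and the FST day 16 pregnancy difference was 1.56 at high progesterone and then called. Array weights brought past the threshold CRIPTO on day 13 for progesterone (-1.22, adjusted p = 0.038), FST on day 16 for pregnancy (0.81) and the change of the MSTN progesterone effect from day 5 to 7 (-2.79); the last was also called among probe sets above the median level (-2.70, adjusted p = 0.041). Without the 5 arrays of high deviation SD, FST on day 16 was 0.88 (adjusted p = 0.045). For CN alone, the MSTN rise from day 7 to 13 was 1.59 in the other probe set, and the CRIPTO fall from day 13 to 16, fitted on those days only, was -2.80 (adjusted p = 0.086); the cause was not tested. Leaving out each array in turn gave -1.66 to -1.01 for CRIPTO on day 13, 0.65 to 1.09 for FST on day 16 (called without day 16 CH 1), -1.05 to -0.65 for CRIPTO from day 7 to 13, 2.02 to 3.39 for MSTN from day 7 to 13 in CN, and -2.97 to -2.20 for the change of the MSTN progesterone effect (called without day 5 CH 4, day 5 CN 5, day 7 CH 4, day 7 CN 1 or day 7 CN 3). With a replicate block the MSTN day 5 progesterone difference was 2.75 and no call of the 12 changed. INHBA and the second MSTN probe set fell under the median-level filter, so that filter gave them no value.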
